A study of Homo sapiens with 16 samples.

Results

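The genes described here make up the ATF4 response and the supply of amino acids to protein synthesis. They are 39 of the 20851 genes that have a row in the count tables of 2 cancer cell lines, and they were taken by symbol from a list of 4 transcription factors (ATF4, ATF3, ATF5, DDIT3), 4 further stress outputs (CHAC1, TRIB3, SESN2, STC2), 10 enzymes of amino acid and folate metabolism, 10 amino acid transporters and 11 cytoplasmic tRNA synthetases. A gene was used in a line where its mean value over the 8 libraries of that line was at least 10. That left 38 genes in PC9, where ALDH1L2 had a mean under 10, and 38 in MDA231, where SLC6A14 was not analysed here. Both lines share 37 of them.

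ATF4 is a basic leucine zipper transcription factor whose mRNA is translated better when the initiation factor eIF2 is phosphorylated, which happens when amino acids run short, when proteins misfold in the endoplasmic reticulum, when haem is lacking or when viral RNA is sensed. It then raises genes that make amino acids, carry them into the cell and load them onto tRNA, together with factors such as DDIT3 (also called CHOP) and ATF3 that shape the later stress response. Because ATF4 is controlled largely at translation, the level of its own mRNA is only one part of its activity, and no protein was measured in these data.

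RNA was sequenced from PC9, a human lung adenocarcinoma line, and MDA231, a human breast cancer line. Each line gave 4 groups of 2 libraries: parental cells, which carry no hairpin, and cells of a leptomeningeal metastatic derivative (LeptoM) that carry a control hairpin (shCTL) or 1 of 2 lentiviral hairpins against the lipocalin gene LCN2 (shLCN2_1, shLCN2_2). LeptoM derivation and the carriage of a hairpin therefore cannot be told apart in the comparison of shCTL with parental cells, and the labels name 1 derivative per line. The comparisons of shCTL with parental cells and of each hairpin with shCTL use the same shCTL libraries of the line. The labels do not state whether replicate libraries represent independent cultures. The p-values below thus reflect library-to-library spread that could be purely technical.

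PC9 libraries held 36796098 to 51759154 gene reads. Those of MDA231 LeptoM cells held 41751486 to 49050069, but the parental MDA231 libraries only 11592790 and 11613984. The hairpins' target, LCN2, fell against shCTL in PC9 LeptoM cells with shLCN2_1 (log2 difference -3.33) and with shLCN2_2 (-1.32). It stood at 21140 and 23247 in parental PC9 libraries and at 51004 and 49615 with shCTL. With shLCN2_1 it was at 3575 and 7046, and with shLCN2_2 at 21415 and 18861, near the parental values. In MDA231 LCN2 stood at 2.98 to 19.3, too low to test here. The epithelial markers EPCAM, CDH1 and KRT8 were present in every PC9 library, and the mesenchymal markers VIM and AXL in every MDA231 library. In PC9, the summed level of 5 mesenchymal-like markers was 138770 to 144630 in parental and 20817 to 41485 in LeptoM libraries. Most of the parental sum was MSN, at 130630 and 125640 in parental and 14159 and 13768 in shCTL libraries. VIM and AXL were also lower with shCTL. CAV1 was at 11186 and 10235 in parental and 10593 and 10885 in shCTL libraries. ZEB1 was at 12.9 and 11.7 in parental and 20.2 and 31.5 in shCTL libraries. The summed level of the macrophage markers analysed was 318 to 1431 in PC9 and 20.9 to 161 in MDA231, and PTPRC, which marks leukocytes, did not exceed 47.2 in any library. The libraries of PC9 shLCN2_1 differed from each other most (chi-square per degree of freedom 43.5, against 3.09 to 27.8 in the other groups), and genes rich in G and C were low in both of them (Spearman correlation with GC content -0.55 and -0.64 across genes, each library relative to the mean of its line), against -0.16 to 0.51 in the other PC9 libraries. In MDA231 the parental libraries were at -0.28 and -0.59, the shCTL libraries at 0.29 and -0.34, and those with hairpins against LCN2 at 0.20 to 0.65. Where removing the trend on GC content ends a call or moves a value by more than 1.5 times, the value without it is given for many results but not all. Removal ended 2 of 27 calls for PC9 LeptoM shCTL minus parental, of which SLC1A5 is named. With PC9 shLCN2_2 it ended 1 of 18, which is not named. Between the PC9 hairpins it ended 6 and turned 2 of 23, of which a part is named. The part of GC content in the differences was not tested otherwise.

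ATF4 and its partners bind a composite element that joins a C/EBP and an ATF site, with the core TGATGNAA. RefSeq promoter windows on GRCh38.p14, each holding 250 bases before and 50 after an annotated start, were found for 32 of the 39 genes (51 windows). GPT2, PSPH, SHMT2, LARS, ALDH1L2, PYCR1 and YARS had no entry. Read on both strands, the core was present in the first window of 11 of these 32 genes (34.4%), against 1003 of 27305 genes in the whole table (3.67%), and in any window of 14 of 32. By role these were 1 of 4 factors, 1 of 4 stress outputs, 1 of 5 enzymes, 3 of 10 transporters and 5 of 9 synthetases. The genes were listed as members of this response, so the share describes the list and is not a test. The cAMP response element TGACGTCA was in none of the 32 first windows (1.98% of all genes), and the E-box CACGTG was in 5 of 32 (15.6%, against 7.43%), among them ATF4 itself, SLC7A5 and IARS. Of the first windows, that of IARS held both the core and the E-box, at separate places (-13 and -186). No binding was measured, so a match is a stretch of letters and not a site in use.

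The 250 bases before the start are shown for ASNS (chr7:97872409-97872658, minus strand) and CHAC1 (chr15:40953221-40953470, plus strand), which had the largest differences among the enzymes and the stress outputs between LeptoM shCTL and parental PC9 cells. The sequences are written on the gene's strand from 5′ to 3′, and capitals mark the core, which is reversed in CHAC1 (TTGCATCA). Its first base is at position -68 in ASNS and -209 in CHAC1, counted from the start as 1.
ASNS: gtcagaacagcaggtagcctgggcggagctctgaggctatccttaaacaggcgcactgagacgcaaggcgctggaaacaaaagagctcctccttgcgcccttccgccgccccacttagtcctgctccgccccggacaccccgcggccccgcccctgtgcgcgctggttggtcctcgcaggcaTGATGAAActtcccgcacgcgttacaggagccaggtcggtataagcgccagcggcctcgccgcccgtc
CHAC1: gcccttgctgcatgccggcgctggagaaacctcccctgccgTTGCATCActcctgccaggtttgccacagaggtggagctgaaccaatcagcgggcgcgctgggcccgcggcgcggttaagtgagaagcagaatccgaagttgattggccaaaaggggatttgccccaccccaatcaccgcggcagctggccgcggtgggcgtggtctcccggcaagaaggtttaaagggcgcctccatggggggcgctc

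For the tRNA synthetases, 30 bases around the core are shown because 5 of the 9 with a window held it in the first one, 4 of them within 15 bases of the start. These are AARS (chr16:70289675-70289704, minus strand, core at -187), CARS (chr11:3057407-3057436, minus strand, core at -2), IARS (chr9:92293692-92293721, minus strand, core at -13), MARS (chr12:57488053-57488082, plus strand, core at -4) and NARS (chr18:57621804-57621833, minus strand, core at 15), with capitals as above. AARS, CARS, IARS and MARS hold the core as TTGCATCA, and NARS holds its reverse complement TGATGCAA.
AARS: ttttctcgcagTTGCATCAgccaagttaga
CARS: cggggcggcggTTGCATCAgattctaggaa
IARS: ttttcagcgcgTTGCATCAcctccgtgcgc
MARS: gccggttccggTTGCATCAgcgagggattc
NARS: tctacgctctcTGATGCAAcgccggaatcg

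Among transporters, 30 bases around the core are shown for SLC1A4 (chr2:64989381-64989410, plus strand, in its second window, core at -7) and SLC38A1 (chr12:46266502-46266531, minus strand, core at -4), and, among the factors, for ATF3 (chr1:212565205-212565234, plus strand, core at -191). SLC1A4 and ATF3 are shown because they differed most between the lines.
SLC1A4: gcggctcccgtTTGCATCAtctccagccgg
SLC38A1: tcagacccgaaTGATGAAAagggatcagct
ATF3: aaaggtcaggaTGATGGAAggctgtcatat

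Per kilobase of exon, the list spanned a wide range of levels. In PC9 the highest mean over all libraries was that of ATF4 (6214 normalized counts per kb), followed by the phosphoserine aminotransferase PSAT1 (4064) and the synthetase EPRS (3664). The lowest genes used there were SLC43A1 (3.25 per kb), ATF3 (47.7) and CHAC1 (50.8). ATF4 also led in MDA231 (3649 per kb), followed by the amino acid carriers SLC38A2 (3194) and SLC1A5 (2929). STC2, which encodes a secreted glycoprotein, stood at 950.0 per kb in PC9 and 1.83 in MDA231, and the lines were normalized apart, so this pair of levels is only set side by side.

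**Figure D1:**
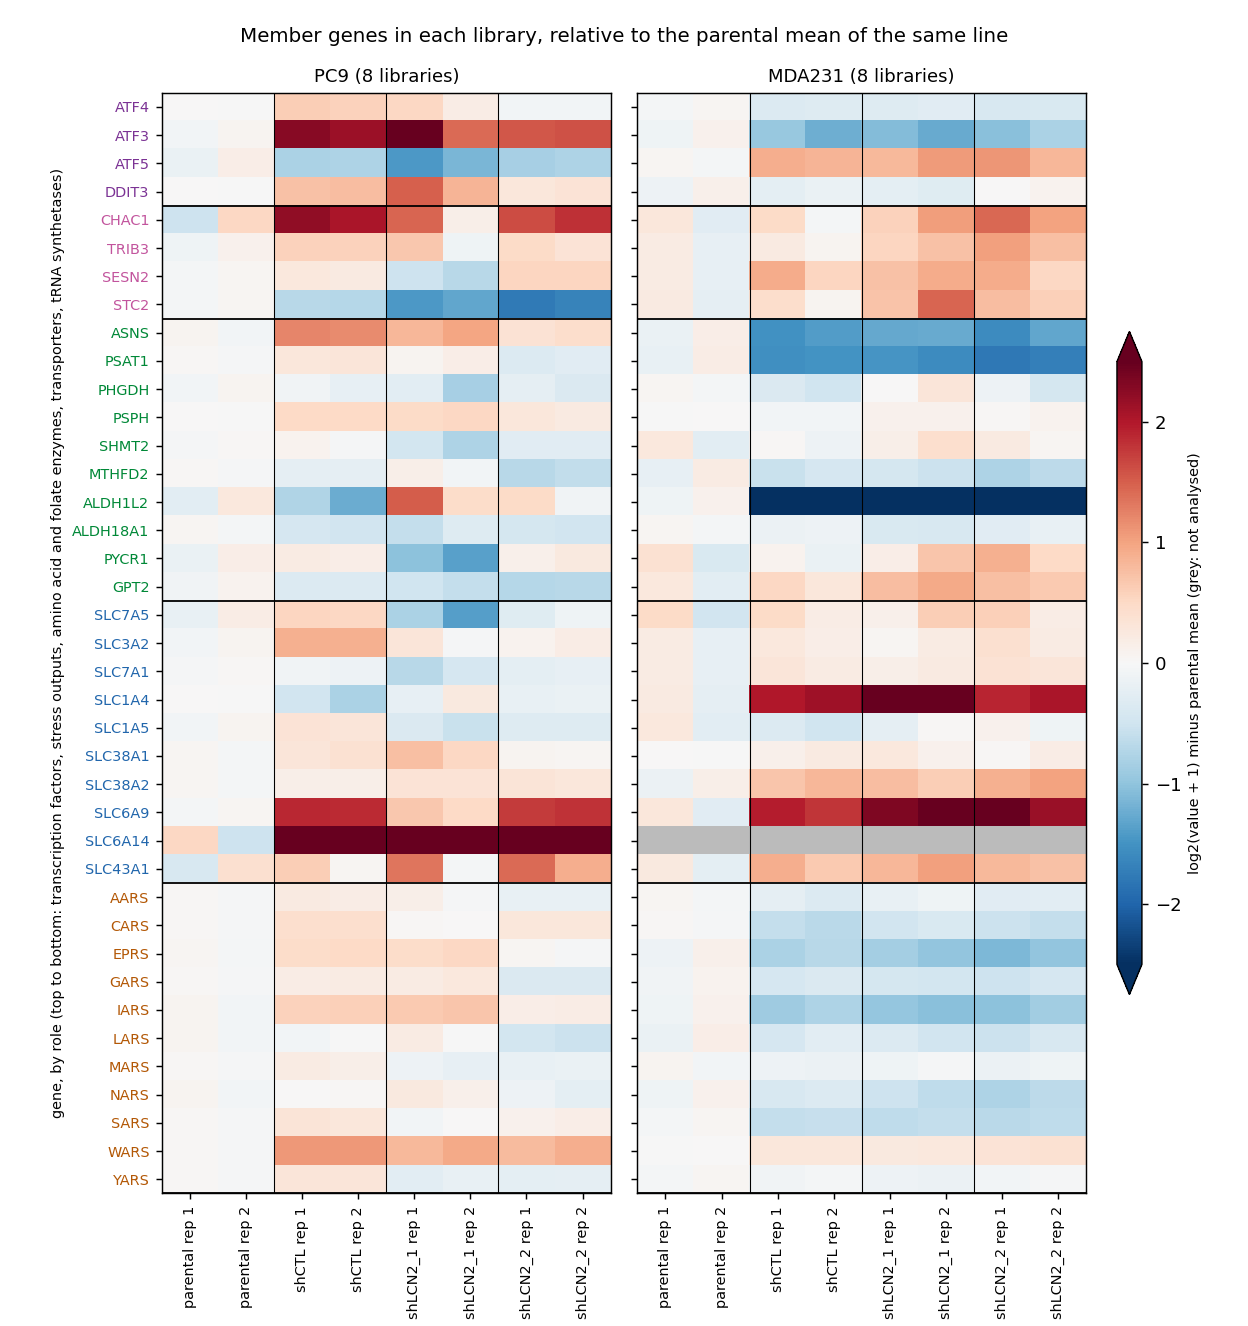
Level of each gene in each library as log2(value + 1) minus the mean of the 2 parental libraries of the same line (colour, from -2.5 to 2.5), with genes in rows by role and libraries in columns; grey marks SLC6A14 in MDA231, which was not analysed here, and ALDH1L2 in PC9 is drawn although it lay under the minimum mean. In PC9 the ASNS, SLC6A9 and WARS rows are red in all LeptoM libraries, whereas the MDA231 panel is blue for ASNS, PSAT1 and most of the listed synthetases.

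In PC9, LeptoM cells with the control hairpin carried more mRNA of ATF4, of the stress factors ATF3 and DDIT3, of the asparagine enzyme ASNS and of 9 of the 11 listed tRNA synthetases than parental cells. Of 38 genes tested with limma, 21 were higher and 6 lower at an adjusted p under 0.05. Over all 15650 genes, 23.8% were called higher and 21.8% lower, whereas the shares among the 38 were 55.3% and 15.8%. The median log2 difference of the 38 was 0.30, and that of all genes 0.01. In bulk RNA, fewer cells expressing a gene and less RNA per cell cannot be told apart.

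ATF4 itself stood at 13281 and 13123 in the parental PC9 libraries and at 20122 and 19647 with shCTL. The shCTL libraries were both higher, and the groups did not overlap. Its log2 difference was 0.59 (SE 0.10, adjusted p = 0.00179 by limma), or 1.51-fold. ATF3, an early stress factor that can repress or activate targets, was at 51.6 and 57.5 in parental cells and 266 and 243 with shCTL, a log2 difference of 2.20 (SE 0.42, adjusted p = 0.00351 by limma). Both shCTL libraries were more than 4 times above either parental one. DDIT3, a pro-apoptotic partner of ATF4, went from 234 in both parental libraries to 390.0 and 398 (0.75, SE 0.19, adjusted p = 0.0121 by limma). Its exons overlap those of the neighbouring synthetase gene MARS on the other strand, and its value is uncertain because the strand setting of the counting is not given in the sources used here. Its call was lost without parental replicate 1 or without either shCTL library (adjusted p up to 0.0685 by limma). ATF5, a related factor linked to the mitochondrial stress response, went the other way, from 5975 and 7451 in parental cells to 3843 and 3918 (-0.78, SE 0.12, adjusted p = 0.0013 by limma). Its exons overlap IL4I1 and NUP62 on the opposite strand, with the same uncertainty.

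The further stress outputs were split. CHAC1, which degrades glutathione, rose from 26.8 and 55.2 to 184 and 161 (2.13, SE 0.44, adjusted p = 0.00542 by limma). Its parental libraries differed by about 2 times from each other, and both lay far under the shCTL libraries. STC2 fell from 9766 and 10463 to 6221 and 6143 (-0.71, SE 0.07, adjusted p = 0.000175 by limma). The pseudokinase TRIB3, which feeds back on ATF4, had a log2 difference of 0.58 (adjusted p = 0.0539 by limma), and the mTORC1 inhibitor SESN2 one of 0.24 (0.0796). Neither passed the threshold, although their libraries did not overlap between the groups.

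Enzymes of amino acid synthesis moved both ways in PC9, with 3 higher and 3 lower of 9 tested (median 0.03). ASNS, which makes asparagine from aspartate and glutamine, stood at 1540.0 and 1399.8 in parental libraries and at 3444 and 3332 with shCTL. Both shCTL libraries exceeded 2 times either parental value. The log2 difference was 1.21 (SE 0.08, 95% confidence interval 1.01 to 1.40, adjusted p = 2.61e-05 by limma), or 2.31-fold. In the serine pathway, PSPH, which performs the last step, rose by 0.50 (adjusted p = 0.000254 by limma) and PSAT1, the middle step, by 0.29 (0.00525), while PHGDH, the first step, had a difference of -0.14 (0.494). The PSAT1 call was lost without shCTL replicate 2 (adjusted p = 0.0536). Lower were the proline pathway enzyme ALDH18A1 (-0.45, adjusted p = 0.00532), the alanine transaminase GPT2 (-0.34, 0.00821) and the mitochondrial folate enzyme MTHFD2 (-0.22, 0.0476). The GPT2 call was lost without either shCTL library (adjusted p up to 0.062), and that of MTHFD2 under 12 of the alternatives tried, among them leaving out any 1 parental or shCTL library (up to 0.18). SHMT2, which makes one-carbon units from serine, and PYCR1, the last enzyme of proline synthesis, had differences of 0.03 and 0.18 and were not called.

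Of 10 transporters, 5 were higher and 1 lower in PC9 LeptoM shCTL cells (median 0.34). SLC6A14, which takes up neutral and basic amino acids, was almost absent in parental cells (12.9 and 5.87) and reached 2854 and 2858 with shCTL, a difference of 8.19 on the log2(value + 1) scale. It passed the minimum mean only through the LeptoM libraries, so it had to differ and is only described, although it is 1 of the 5. The glycine transporter SLC6A9 (GLYT1) was at 408 and 440.4 in parental and 1568 and 1539 in shCTL libraries, 3.66-fold higher (1.87, SE 0.09, adjusted p = 4.98e-06 by limma). SLC3A2, the shared heavy chain of several exchangers, rose by 0.89 (SE 0.10, adjusted p = 0.000307 by limma), while its partner in the large neutral amino acid exchanger, SLC7A5 (LAT1), had a difference of 0.52 (SE 0.19, 0.0505) from 9760.0 and 12624 to 16088 and 15783. SLC7A5 thus fell just short of the threshold, with groups that did not overlap. The glutamine carriers SLC1A5 (0.32, adjusted p = 0.0108) and SLC38A1 (0.35, 0.0102) were also called higher. SLC1A5 had a difference of only 0.08 once the GC trend was removed (adjusted p = 0.346). SLC38A1 lost its call without parental replicate 2 or shCTL replicate 2 (adjusted p up to 0.0809), and SLC1A5 without parental replicate 1 or either shCTL library (up to 0.0798). SLC1A4 (ASCT1), a carrier of alanine, serine and cysteine, was lower, at 535 and 523 in parental and 382 and 305 in shCTL libraries (-0.63, SE 0.16, adjusted p = 0.0136 by limma). That call was lost without parental replicate 1 or shCTL replicate 2 (up to 0.109).

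Of the 11 listed tRNA synthetases, 9 were higher in PC9 and none lower, with a median of 0.30, while 12 other genes of the cytoplasmic synthetase group gave 2 higher and 5 lower. That group includes AIMP1, AIMP2 and EEF1E1, which belong to the synthetase complex but are not synthetases, and EEF1E1 (-0.52) was among the lower. Each synthetase joins 1 or 2 amino acids to their tRNAs. The tryptophan enzyme WARS had by far the largest difference, from 1894 and 1801 to 3934 and 3914 (1.09, SE 0.07, adjusted p = 2.35e-05 by limma), or 2.12-fold. WARS is also known as an interferon-induced gene, and of 7 interferon genes tested 3 were higher and 2 lower, with IFIT1 at 1.71 and GBP1 at -2.72. Their part in the WARS difference was not tested. The isoleucine enzyme IARS rose from 15444 and 14221 to 22154 and 22326 (0.59, SE 0.06, adjusted p = 0.000171 by limma), and the glutamate and proline enzyme EPRS from 17263 and 16006 to 22992 and 23396 (0.48, SE 0.06, 0.000527). In both the shCTL libraries lay within a few percent of each other and clear of the parental ones. CARS (0.42), SARS (0.30), YARS (0.30), AARS (0.21), GARS (0.20) and MARS (0.18) were called higher with smaller differences, while LARS (-0.05) and NARS (0.01) were not called. AARS, GARS and MARS lost their calls without either shCTL library, without parental replicate 2 or without either shLCN2_2 library, and AARS and MARS without parental replicate 1 as well (adjusted p up to 0.219). SARS lost its call without shCTL replicate 1 (0.0529).

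The PC9 shCTL libraries stood apart from the other LeptoM libraries in several of these genes. When the 4 libraries with hairpins against LCN2 took the place of shCTL, a comparison chosen after seeing the data, 13 of the 38 genes were called higher and 14 lower than in parental cells. AARS (-0.061), GARS (-0.062), MARS (-0.17), YARS (-0.23), PSAT1 (-0.10) and SLC1A5 (-0.39) then had the opposite sign. ATF4, SLC3A2, SARS and SLC1A4 kept their direction and lost the call. Without shCTL replicate 2, 3 genes were called lower in place of 6. ATF3, CHAC1, ASNS, SLC6A9, PSPH, WARS, IARS, EPRS and CARS stayed higher with adjusted p under 0.05 in every alternative run for them, this one and leaving out any 1 library included.

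Counts for other genes of the same pathways in PC9 are set beside all genes, of which 23.8% were higher and 21.8% lower. Of 15 further ATF4 partners and targets tested, 6 were higher and 2 lower (median 0.43), with the secreted cytokine GDF15 (1.82), the transsulfuration enzyme CBS (1.11) and the cystine transporter SLC7A11 (1.08) as the largest. Among 16 eIF2 kinases and regulators, 3 were higher and 5 lower (median -0.10). EIF2S1, the eIF2 subunit that is phosphorylated, was at -0.98, whereas the protease OMA1, which relays mitochondrial stress, was at 0.88 and PPP1R15A, which guides eIF2 dephosphorylation, at 0.78. The 17 chaperones and regulators of the unfolded protein response gave 3 higher and 6 lower (median 0.03). The median of the 12 other genes of the cytoplasmic synthetase group was -0.09, and of 17 mitochondrial synthetases 2 were higher and 3 lower. Further amino acid and folate enzymes gave 7 higher and 3 lower of 18, among them the branched-chain transaminase BCAT1 at -3.57 and the proline dehydrogenase PRODH at 2.64. PRODH stood at 3.97 and 3.52 in parental and 26.6 and 30.5 in shCTL libraries. It passed the minimum mean only through the LeptoM libraries, so it had to differ and is only described.

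MDA231 cells gave another picture, in which LeptoM cells with shCTL had less ASNS, PSAT1 and ATF3 mRNA and less of 7 of the 11 listed tRNA synthetases than parental cells, and more SLC1A4 and SLC6A9. Of 38 genes, 7 were higher and 14 lower by limma, against 24.8% higher and 23.8% lower of all 14387 genes. The median was -0.10, and that of all genes 0.04. Of the 38, 36.8% were thus lower and 18.4% higher. The parental libraries had far fewer reads than the others, and with the GC trend removed 24 genes were called lower. Without shCTL replicate 1 the counts were 4 higher and 8 lower, and without parental replicate 1 there were 11 higher.

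Among the factors, ATF4 went from 10550.4 and 11232 in parental MDA231 libraries to 8614 and 8666 with shCTL (-0.33, SE 0.07, adjusted p = 0.00681 by limma). The groups did not overlap, but the call was lost without shCTL replicate 1 (0.0608), and the difference was -0.67 with the GC trend removed. ATF3 fell from 196 and 226 to 109 and 90.3 (-1.08, SE 0.18, adjusted p = 0.00342 by limma). Both shCTL libraries were near 100, under either parental value. ATF5 rose from 791 and 730 to 1433 and 1368 (0.88, SE 0.13, adjusted p = 0.00178 by limma), a difference that was 0.38 with the GC trend removed. DDIT3 was at 505 and 599 in parental and 463 and 490.0 in shCTL libraries (-0.21, adjusted p = 0.191) and was not called. Of the stress outputs, only SESN2 was called, at 0.73 (SE 0.22, adjusted p = 0.0315 by limma), and it was 0.25 (0.0949) with the GC trend removed. Its call was also lost without parental replicate 2, shCTL replicate 1 or either shLCN2_1 library (up to 0.192). CHAC1 had 102 and 68.5 in parental and 117 and 81.2 in shCTL libraries, which overlap.

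The enzymes of amino acid synthesis gave 5 lower and none higher of 10 in MDA231 (median -0.28). One of the 5, ALDH1L2, passed the minimum mean only through the parental libraries, so it had to differ and is only described. ASNS was at 2082 and 2649 in parental and 819 and 891 in shCTL libraries, 2.75-fold lower (-1.46, SE 0.15, 95% confidence interval -1.80 to -1.12, adjusted p = 0.000416 by limma). PSAT1 fell from 7859 and 10260.4 to 3104 and 3179, 2.86-fold lower (-1.52, SE 0.13, adjusted p = 0.000222 by limma). For each gene both shCTL values were well under either parental one. ALDH1L2, a mitochondrial enzyme that oxidises formyl folate, was at 102 and 119 in parental libraries and at 0 and 3.79 with shCTL, where 3 reads are worth 2.15 and 2.28. It also stayed between 0 and 3.27 in all 4 libraries with hairpins against LCN2. Its exons overlap C12orf45 on the other strand, so it is uncertain without the strand setting. MTHFD2 (-0.49, adjusted p = 0.0243 by limma) and PHGDH (-0.43, 0.0444) were lower as well, at -0.27 and -0.85 with the GC trend removed. The call of MTHFD2 was lost without parental replicate 2 or either shCTL library (up to 0.14) and that of PHGDH without either parental library or either shCTL library (up to 0.19). PSPH (-0.07), SHMT2 (-0.05), PYCR1 (-0.04), ALDH18A1 (-0.13) and GPT2 (0.40) were not called.

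Transporters in MDA231 gave 4 higher and none lower of 9 (median 0.33). SLC1A4 rose from 176 and 128 to 605 and 653, 4.17-fold (2.06, SE 0.16, adjusted p = 0.00018 by limma). SLC6A9 rose from 102 and 68.5 to 330 and 293, 3.68-fold (1.88, SE 0.23, adjusted p = 0.000914 by limma). In both genes every LeptoM library, with any hairpin, lay above both parental libraries. The glutamine carrier SLC38A2 (SNAT2), itself raised by amino acid shortage, rose by 0.76 (SE 0.12, adjusted p = 0.00222 by limma), and the branched-chain carrier SLC43A1 by 0.78 (SE 0.18, 0.0125), the latter without a call when shCTL replicate 1 was left out (0.0922) and at 0.36 with the GC trend removed. SLC7A5 ranged from 3751 to 7303 in the parental libraries alone and from 5931 to 7304 with shCTL, so no difference was detectable (0.33, 95% confidence interval -0.43 to 1.09). SLC3A2 had a difference of 0.22 and was not called.

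Of the 11 listed synthetases, 7 were lower in MDA231 LeptoM shCTL cells and WARS alone was higher (median -0.37). IARS fell from 20914 and 24343 to 12184 and 13251 (-0.83, SE 0.10, adjusted p = 0.000857 by limma), and EPRS from 14291 and 16934 to 8960.5 and 9625 (-0.74, SE 0.11, 0.0017). CARS (-0.63), SARS (-0.59), GARS (-0.40), NARS (-0.37) and AARS (-0.28) followed, NARS at -0.22 and AARS at -0.48 with the GC trend removed. WARS rose from 5278 and 5297 to 6421 and 6402 (0.28, SE 0.06, adjusted p = 0.0114 by limma), and by 0.15 with the GC trend removed. Of 8 interferon genes, 4 were higher and 1 lower. IDO1, 1 of these 4, stood at 0 in both parental libraries and at 12.9 in both shCTL libraries. It passed the minimum mean only through the LeptoM libraries, so it had to differ and is only described. LARS (-0.34), MARS (-0.14) and YARS (-0.07) were not called. The calls of AARS, NARS and WARS were lost without either shCTL library (up to 0.146), and that of GARS without shCTL replicate 1 (0.0664). The 12 other genes of the cytoplasmic synthetase group gave 3 higher and 4 lower (median -0.06), with TARS at 0.86, RARS at -0.75 and VARS at 0.74. Of all genes, 24.8% were higher and 23.8% lower. Of 13 other ATF4 partners and targets tested, 2 were higher and 6 lower (median -0.25, with SLC7A11 at -0.80). Of 17 mitochondrial synthetases, 2 were higher and 7 lower (median -0.33). Other transporters gave 5 higher and 2 lower of 13, led by SLC43A2 at 2.99 and SLC38A4 at 2.38. SLC43A2 stood at 14.2 and 2.98 in parental and 58.6 and 63.0 in shCTL libraries. It passed the minimum mean only through the LeptoM libraries, so it had to differ and is only described.

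Tested as a difference between the lines in one fit over both tables, the LeptoM effect was more positive in PC9 for 19 of 37 genes and more negative for 5, against 21% and 23.6% of all 13392 genes. STC2 is 1 of the 5 and is only described, because its MDA231 means were 7.23 in parental and 8.80 in shCTL cells. The lines were normalized apart, and the test compares each line's own change. Called higher in PC9 and lower in MDA231 were 10 genes: ATF4, ATF3, ASNS, PSAT1, AARS, CARS, EPRS, GARS, IARS and SARS, and the difference was called for all 10. ASNS differed by 2.66 (SE 0.17, adjusted p = 5.54e-07 by limma), ATF3 by 3.28 (SE 0.52, 0.000361), PSAT1 by 1.81 (SE 0.14, 2.33e-06) and IARS by 1.41 (SE 0.12, 3.39e-06). ATF5 and SLC1A4 went the opposite way, lower in PC9 and higher in MDA231, with differences of -1.66 (SE 0.19, adjusted p = 3.25e-05 by limma) and -2.69 (SE 0.25, 6.5e-06). CHAC1 differed by 1.91 (SE 0.60, adjusted p = 0.0218 by limma), a call lost without parental replicate 1 or shCTL replicate 1 of PC9, or parental replicate 1 or shCTL replicate 2 of MDA231 (up to 0.0916). SLC6A9 was higher in both lines by nearly the same amount (difference -0.01, 95% confidence interval -0.58 to 0.56), WARS was higher in both and more so in PC9 (difference 0.81), and MTHFD2 was lower in both (difference 0.27, not called). Outside the list, the 12 other genes of the cytoplasmic synthetase group gave 3 more positive in PC9 and 4 more negative. With the hairpin libraries in place of shCTL, the difference turned sign for SLC3A2 (-0.083), SLC1A5 (-0.34), MARS (-0.071) and YARS (-0.14). The number of genes more negative in PC9 was 3 without PC9 parental replicate 2 or without MDA231 shCTL replicate 1, and 8 without MDA231 parental replicate 1.

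**Figure D2:**
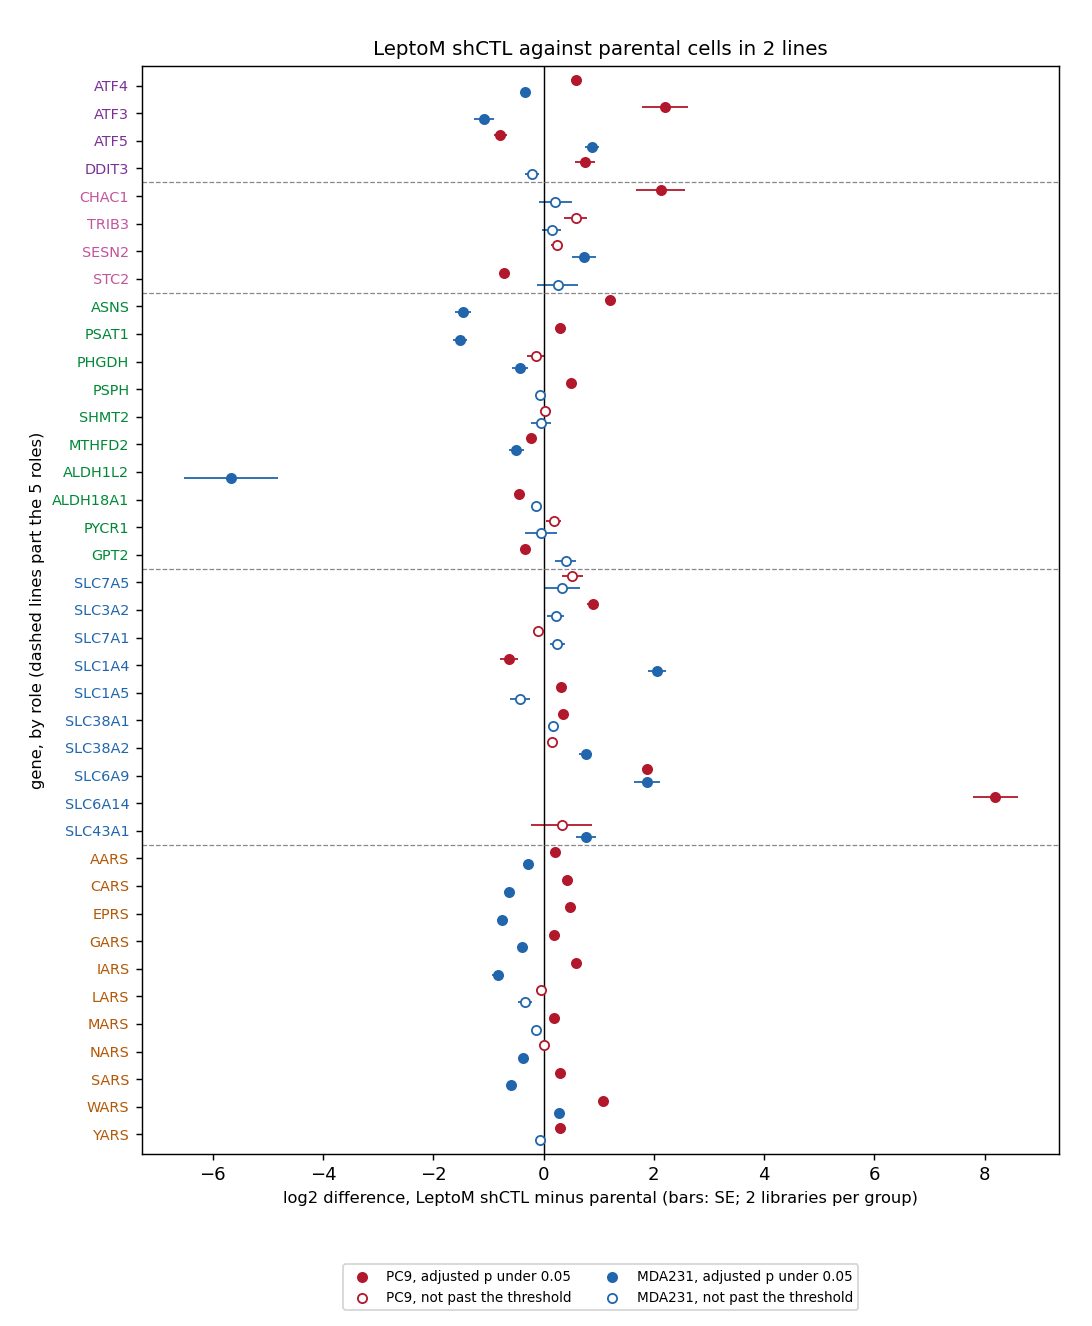
Log2 difference of LeptoM shCTL minus parental cells (x axis) for each gene (y axis, by role) in PC9 (red) and MDA231 (blue); points are limma estimates from 2 libraries per group, bars are standard errors, and filled points have an adjusted p under 0.05. Most of the 11 listed tRNA synthetases lie right of 0 in PC9 and left of 0 in MDA231, and SLC6A9 lies near 1.87 in both.

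**Figure D3:**
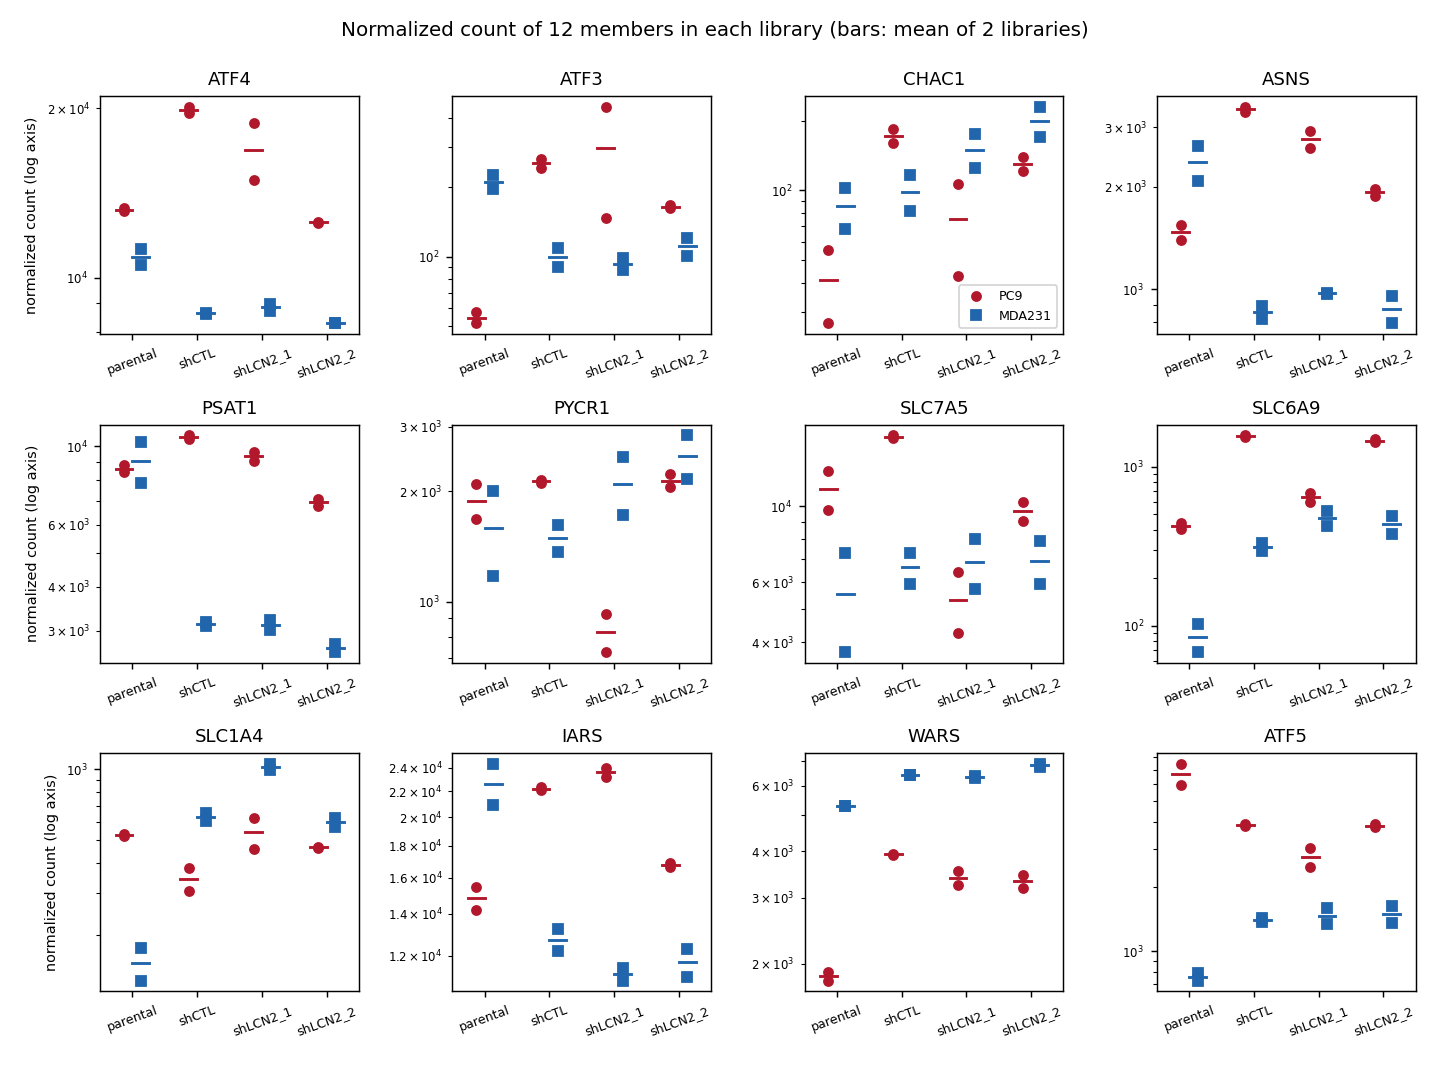
Normalized count on a log axis of 12 genes in each library (points) and the mean of 2 libraries (bars), by group, for PC9 (red circles) and MDA231 (blue squares). ASNS rises from 1469.9 to 3388 on average in PC9 and falls from 2365 to 855 in MDA231, while SLC6A9 rises in both lines.

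In PC9 LeptoM cells, the hairpins against LCN2 were compared with the control hairpin, and with each of them a part of the list was lower. STC2, SLC7A5, SLC3A2, SLC1A5, ASNS, PSAT1, MARS and YARS were called lower with both. Called with shLCN2_2 and not with shLCN2_1 were, among others, ATF4 and the synthetases AARS, EPRS, GARS, IARS and LARS. The reverse held, among others, for the transporter SLC6A9, the proline enzyme PYCR1 and the stress outputs SESN2 and CHAC1. For CHAC1, the direct difference between the hairpins was not called. With the GC trend removed, SESN2 (-0.13) and CHAC1 (-0.26) were no longer called with shLCN2_1, and PYCR1 was at -0.41 in place of -1.38. SLC1A5 and YARS then lost their shLCN2_1 calls as well. Both comparisons share the shCTL libraries, so the values are given side by side and their likeness was not tested.

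With shLCN2_2, 18 of 38 genes were lower by limma (47.4%, against 9.7% of all genes) and 0 were higher (9.81% of all genes). At an unadjusted p under 0.05, 23 were lower and 3 higher, and edgeR on the recovered reads called 18 lower and 0 higher. The median difference was -0.33, and that of all genes -0.0023. With shLCN2_1, 17 genes were lower (44.7%, against 25.3% of all genes) and 4 higher (10.5%, against 18.8%), with a median of -0.27 (all genes 0.03). Of all genes called with shLCN2_1, 42.6% were higher as deposited, 56.0% with upper-quartile scaling and 52.2% with TMM scaling.

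These counts rest on few libraries. With shLCN2_2, the number lower was 8 without shCTL replicate 1, 7 without shCTL replicate 2, 8 without shLCN2_2 replicate 1 and 10 without shLCN2_2 replicate 2, and 3 genes were called higher without either shLCN2_1 library. With shLCN2_1, the number higher was 1 without shCTL replicate 1, 0 without shCTL replicate 2, 2 without shLCN2_1 replicate 1 and 8 without shLCN2_1 replicate 2.

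Among the factors, ATF4 was at 20122 and 19647 with shCTL, 18796 and 14930 with shLCN2_1 and 12523 and 12564 with shLCN2_2. The shLCN2_2 values were below both parental libraries, and all 3 groups were apart from each other. ATF4 fell with shLCN2_2 (-0.66, SE 0.10, adjusted p = 0.0043 by limma), a call lost without either shCTL library or shLCN2_2 replicate 1 (up to 0.055), and had a difference of -0.25 with shLCN2_1 (0.0711). ATF3 ranged from 148 to 446 within shLCN2_1 and was 162 and 167 with shLCN2_2, and neither difference was called. DDIT3 was 660 and 424 with shLCN2_1 and 284 and 297 with shLCN2_2, on either side of the shCTL values and likewise not called against them. ATF5 was called lower with shLCN2_1 (-0.50, adjusted p = 0.0111 by limma), had a difference of 0.26 with the GC trend removed, and was at -0.01 with shLCN2_2. The ATF5 call was also lost without either shCTL library (up to 0.065).

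Of the stress outputs, STC2 was at 6221 and 6143 with shCTL, 3727 and 4104 with shLCN2_1 and 2960 and 3189 with shLCN2_2. Both hairpin groups lay below shCTL in every library. It fell by 0.66 on the log2 scale with shLCN2_1 (SE 0.07, adjusted p = 0.000276 by limma) and by 1.01 with shLCN2_2 (SE 0.07, 0.000602), and no alternative ended either call. SESN2 was at 364 and 320.5 with shLCN2_1, under the shCTL values of 621 and 606, and at 749 and 758 with shLCN2_2. It was called lower with shLCN2_1 (-0.84, adjusted p = 0.000349 by limma), but the difference was -0.13 with the GC trend removed (0.282). CHAC1 was 107 and 43.0 with shLCN2_1 (-1.33, SE 0.44, adjusted p = 0.0404 by limma), a call that 11 alternatives ended, among them removal of the GC trend (-0.26), leaving out either shCTL or either shLCN2_2 library, or shLCN2_1 replicate 2 (up to 0.169).

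Among the enzymes, ASNS was at 3444 and 3332 with shCTL, 2600.2 and 2927 with shLCN2_1 and 1876 and 1979 with shLCN2_2. All hairpin libraries lay below shCTL and above the parental values of 1540.0 and 1399.8. ASNS fell with shLCN2_2 (-0.81, SE 0.08, adjusted p = 0.0014 by limma) and, less firmly, with shLCN2_1 (-0.30, SE 0.08, 0.0216), where the call was lost without either shCTL library or shLCN2_1 replicate 1 (up to 0.134) and with upper-quartile scaling. PSAT1 went from 10476 and 10733 to 6781 and 7106 with shLCN2_2 (-0.61, adjusted p = 0.00128 by limma). Its difference with shLCN2_1 was -0.18 (0.0433), lost in 12 alternatives, among them TMM and upper-quartile scaling and leaving out either shCTL library, either shLCN2_2 library or shLCN2_1 replicate 1 (up to 0.211), and -0.40 with the GC trend removed. PYCR1 showed the reverse split, at 2151 and 2111 with shCTL, 924 and 729 with shLCN2_1 and 2050 and 2228 with shLCN2_2. Only the shLCN2_1 libraries were low, and the difference was -1.38 (SE 0.14, adjusted p = 0.00019 by limma), which shrank to -0.41 (0.0111) with the GC trend removed. SHMT2 was lower with shLCN2_1 (-0.64, adjusted p = 0.00116, and -0.34 with the GC trend removed). MTHFD2 (-0.42), GPT2 (-0.35) and PSPH (-0.24) were lower with shLCN2_2, and each lost its call when any 1 shCTL or shLCN2_2 library was left out (up to 0.169). MTHFD2 was called higher with shLCN2_1 (0.27, adjusted p = 0.0263), a call that was lost without either shCTL library or shLCN2_1 replicate 1 (up to 0.123) and at 0.04 with the GC trend removed.

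Among transporters, SLC7A5 was at 16088 and 15783 with shCTL, 6408 and 4248 with shLCN2_1 and 9034 and 10264.0 with shLCN2_2. Both hairpin groups fell below shCTL, the shLCN2_1 libraries furthest. Its differences were -1.61 (SE 0.19, adjusted p = 0.000324 by limma) and -0.73 (SE 0.19, 0.0306), and the first was -0.72 (0.01) with the GC trend removed. The second was lost when any 1 shCTL or shLCN2_2 library was left out (up to 0.184). Its heavy chain SLC3A2 fell by nearly the same amount with either hairpin, from 16034 and 16091 to 10672 and 8555 (-0.75, adjusted p = 0.000708 by limma) and to 9191 and 9802 (-0.76, 0.00342), and the first was -0.26 (0.0476) with the GC trend removed. SLC1A5 fell by 0.78 with shLCN2_1 (adjusted p = 0.000192 by limma) and by 0.65 with shLCN2_2 (0.00228), and the first turned to 0.14 with the GC trend removed. SLC6A9 was at 678 and 601 with shLCN2_1 against 1568 and 1539 with shCTL (-1.28, SE 0.09, adjusted p = 0.000167 by limma), and at 1418 and 1485 with shLCN2_2 (-0.10, 0.491). The shLCN2_1 libraries were low, and the shLCN2_2 libraries lay just under shCTL. With the GC trend removed the shLCN2_1 difference was -0.56 (0.00231). SLC1A4 was higher with shLCN2_1, at 462 and 623 against 382 and 305 (0.65, SE 0.16, adjusted p = 0.0122 by limma), a call lost without shCTL replicate 2 (0.0974). SLC7A1, the carrier of basic amino acids, was lower with shLCN2_1 (-0.45, adjusted p = 0.00366). SLC38A1 was called higher with shLCN2_1 (0.29) and lower with shLCN2_2 (-0.29), and both calls were lost without either shCTL library (up to 0.252). SLC38A1 (0.061) and SLC38A2 (0.19, turning to -0.059) had no call with shLCN2_1 once the GC trend was removed. SLC6A14 stayed high with either hairpin, between 1460.0 and 4794, and its differences from shCTL were not called.

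Of the synthetases, 7 of 11 were lower with shLCN2_2 and none higher (median -0.39), and 4 were lower with shLCN2_1 (median -0.15). GARS went from 8268 and 8383 with shCTL to 5661 in both shLCN2_2 libraries (-0.56, SE 0.06, adjusted p = 0.00139 by limma), while it was at 8379 and 8743 with shLCN2_1. The shLCN2_1 values overlapped those of shCTL, and every shLCN2_2 value was below the parental ones as well. YARS fell with both, by 0.53 (adjusted p = 0.000264 by limma) and 0.53 (0.0016), and the first was -0.19 (0.0614) with the GC trend removed. AARS (-0.38), EPRS (-0.47), IARS (-0.41), LARS (-0.45) and MARS (-0.36) were lower with shLCN2_2. EPRS lost its call without shCTL replicate 2 (0.0511), IARS without either shCTL library or shLCN2_2 replicate 1 (0.0639), and AARS, LARS and MARS when any 1 shCTL or shLCN2_2 library was left out (up to 0.0973). CARS (-0.41), MARS (-0.35) and SARS (-0.33) were lower with shLCN2_1, at -0.26, -0.16 and -0.29 with the GC trend removed. WARS just missed the threshold with either hairpin (-0.21, adjusted p = 0.0507, and -0.24, 0.0566), beside interferon genes of which 5 were higher and 1 lower of 7 with shLCN2_1 and 3 higher and 0 lower with shLCN2_2.

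**Figure D4:**
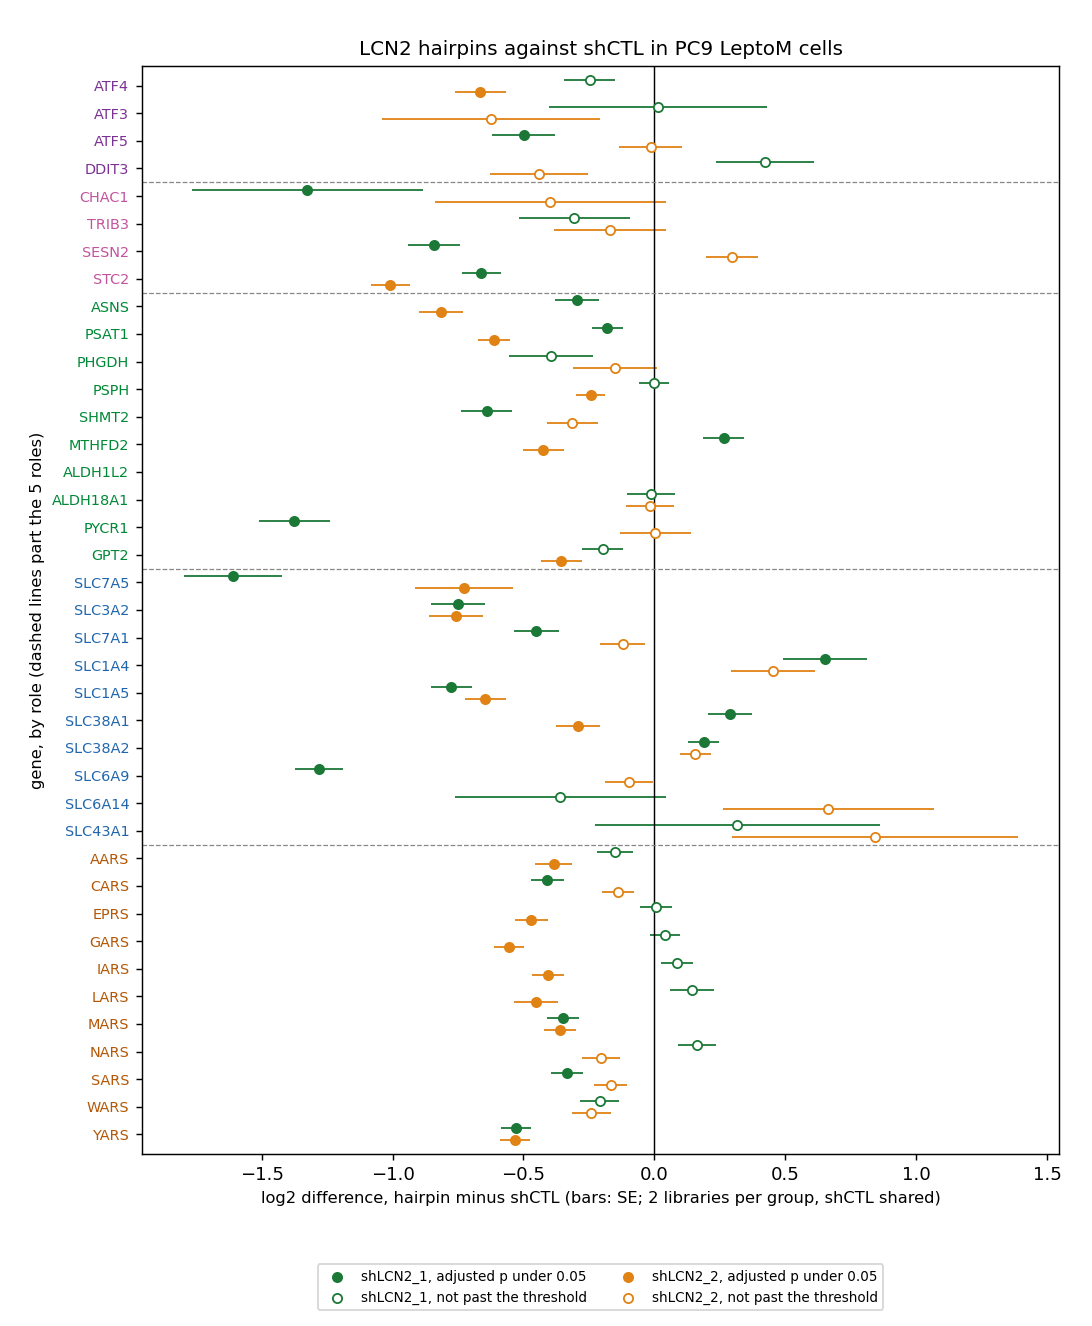
Log2 difference from LeptoM shCTL cells in PC9 (x axis) for each gene (y axis, by role) with shLCN2_1 (green) and shLCN2_2 (orange); points are limma estimates from 2 libraries per group, bars are standard errors, and filled points have an adjusted p under 0.05. PYCR1 and SLC6A9 lie far left with shLCN2_1 and near 0 with shLCN2_2, and GARS, EPRS, IARS and LARS lie left of 0 with shLCN2_2 only.

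Tested directly, shLCN2_1 and shLCN2_2 cells differed in 23 of the 38 genes, 14 higher and 9 lower with shLCN2_1, against 25.6% and 28.9% of all genes. ATF4 (0.42), DDIT3 (0.86), ASNS (0.52), MTHFD2 (0.69), GARS (0.60), LARS (0.60), IARS (0.49) and EPRS (0.47) were among the higher. DDIT3 and MARS share exons on opposite strands, and MARS had a difference of 0.01. PYCR1 (-1.38, SE 0.14, adjusted p = 0.000108 by limma), SLC6A9 (-1.18, SE 0.09, 6e-05), SESN2 (-1.14, SE 0.10, 7.26e-05) and SLC7A5 (-0.88, SE 0.19, 0.00447) were among the lower. The genes lower with shLCN2_1 than with shLCN2_2 had a median GC content of 59.5%, and the higher ones 45.7%. With the GC trend removed, 5 were lower, PYCR1 was at -0.27 (0.0363), SLC6A9 at -0.37 (0.0061), SESN2 at -0.34 (0.0165) and SLC7A5 at 0.13 (0.496). ATF4 was then at 0.87, GARS at 0.46 (0.000581), LARS at 0.30, IARS at 0.23 and EPRS at 0.20. Without shLCN2_2 replicate 2, 4 genes were called lower.

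**Figure D5:**
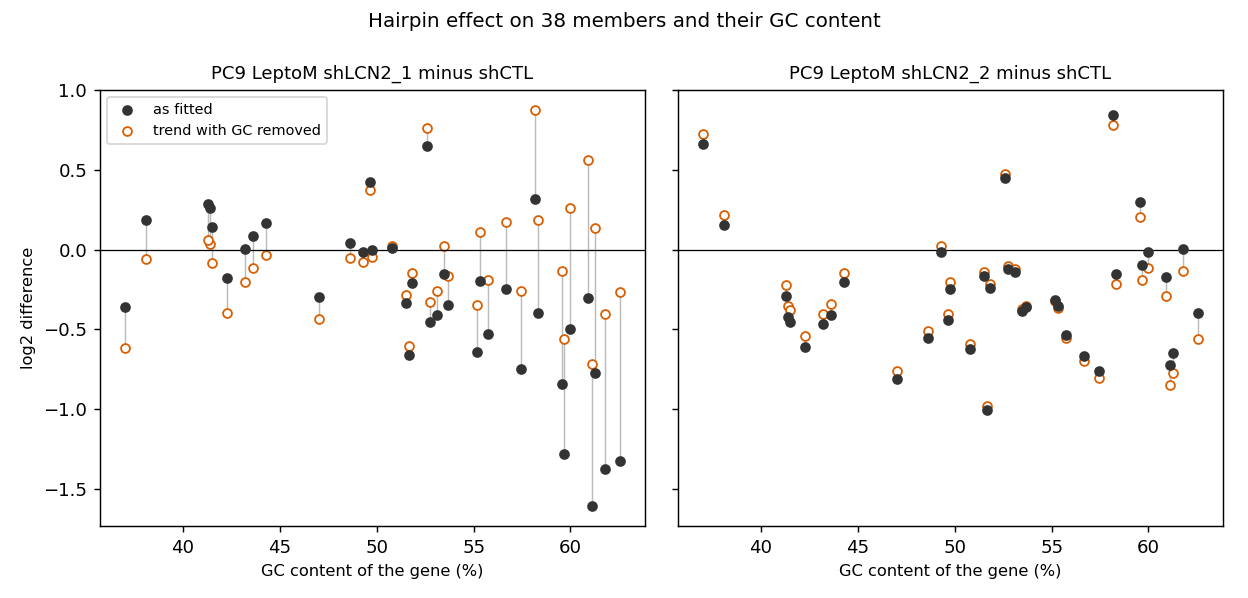
Log2 difference from LeptoM shCTL cells in PC9 (y axis) against the GC content of each gene's transcripts in percent (x axis), for shLCN2_1 and shLCN2_2; each point is 1 gene of the list, filled as fitted and open with the GC trend over all genes removed. The genes lower with shLCN2_1 had a median GC content of 55.7% and the 4 higher ones 41.3%, and the open points of shLCN2_1 lie closer to 0 than the filled ones at high GC content.

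Outside the list, counts for the same pathways in PC9 are set beside all genes. Of all genes, 9.81% were higher and 9.7% lower with shLCN2_2, and 18.8% higher and 25.3% lower with shLCN2_1. With shLCN2_2, 5 of 12 other genes of the cytoplasmic synthetase group and 4 of 17 mitochondrial synthetases were lower and none higher (medians -0.22 and -0.18). Of 15 further ATF4 partners and targets tested, 3 were higher and 2 lower with shLCN2_2, with the stress regulator NUPR1 at 2.05 and SLC7A11 at -1.25, and 5 were higher and 4 lower with shLCN2_1. Other transporters gave 5 higher and 1 lower of 15 with shLCN2_2 and 7 higher and 3 lower with shLCN2_1. SLC1A2 counts among the higher with either hairpin, and it likewise passed the minimum mean only through the libraries with hairpins against LCN2. Genes of the unfolded protein response gave 2 higher and 4 lower of 17 with shLCN2_2 and 6 higher and 7 lower with shLCN2_1. The eIF2 kinases and regulators gave 0 higher and 5 lower of 16 with shLCN2_2, and 5 higher and 2 lower with shLCN2_1.

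In MDA231, LCN2 stood at 19.3 and 13.7 with shCTL and at 4.31 to 6.53 in the 4 libraries with hairpins against it, all below both shCTL values, at levels too low to test here. As fitted, no gene of the list was called with either hairpin against shCTL by limma or by edgeR. With the GC trend removed, 3 were called higher and 2 lower with shLCN2_1 (SLC1A4 0.65, SLC6A9 0.34, PSPH 0.20, SLC3A2 -0.27 and ALDH18A1 -0.23), and 2 higher and 2 lower with shLCN2_2 (SLC38A2 0.34, PYCR1 0.33, NARS -0.25 and EPRS -0.20). A replicate block with crossed numbers, chosen after seeing the data, called 8 higher and 2 lower with shLCN2_1 and 5 higher and 2 lower with shLCN2_2. Of all genes, 0.841% were called with shLCN2_1 and 0.521% with shLCN2_2. At an unadjusted p under 0.05, 7 of the 38 genes passed with shLCN2_1 and 5 with shLCN2_2. ATF4 was at 8614 and 8666 with shCTL, 8727 and 8980.4 with shLCN2_1 and 8300.5 and 8324 with shLCN2_2, a spread of a few percent. ASNS was between 793 and 976 in all 6 LeptoM libraries, with a difference of 0.19 with shLCN2_1 (95% confidence interval -0.16 to 0.53) and 0.03 with shLCN2_2 (-0.31 to 0.37). Both intervals include 0. SLC1A4 had the smallest p of the list with shLCN2_1, at 990.0 and 1051 against 605 and 653 with shCTL (0.70, 95% confidence interval 0.31 to 1.08, adjusted p = 0.127 by limma). CHAC1 was at 229 and 170 with shLCN2_2 and 117 and 81.2 with shCTL (1.01, 95% confidence interval 0.30 to 1.72, adjusted p = 0.231 by limma), and the pseudokinase TRIB3 differed by 0.75 (0.155). Each of these groups was apart from shCTL, but none passed the threshold. Without 1 parental library, 1 gene was called higher with shLCN2_1 (either parental replicate) and 1 with shLCN2_2 (parental replicate 1). Between the hairpins, 0 genes were called by limma (2.69% of all genes) and 1 by edgeR, with 3 at an unadjusted p under 0.05. Outside the list, the transcription factor JDP2 (2.04, adjusted p = 0.0402 by limma) and the peptide hormone gene ADM2 (1.97, 0.0377) were higher with shLCN2_1.

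The hairpin effects differed between the lines for part of the list. With shLCN2_1 the difference from shCTL was more negative in PC9 for 18 of 37 genes and more positive for 1, NARS, against 21% and 14.5% of all genes. SLC6A9 (-1.88, SE 0.26, adjusted p = 0.00317 by limma), PYCR1 (-1.85, SE 0.35, 0.0073) and CARS (-0.61, SE 0.09, 0.00488) kept the call when any 1 library was left out, and were at -0.90, -0.53 and -0.40 with the GC trend removed. The count of 18 was 8 with the GC trend removed, 10 without PC9 shCTL replicate 1, 5 without MDA231 shCTL replicate 2 and 6 without MDA231 shLCN2_1 replicate 2. With shLCN2_2 it was more negative in PC9 for 10 genes and more positive for 0 (1.66% and 3.69% of all genes), with 0 more positive at an unadjusted p under 0.05 and by edgeR. The 10 were ATF4 (-0.61), STC2 (-1.44), ASNS (-0.84), PSPH, SLC3A2, SLC1A5, AARS, GARS, MARS and YARS, and YARS (-0.55, SE 0.08, adjusted p = 0.00385 by limma) alone kept its call without any 1 library, though not with the GC trend removed (-0.41, 0.107). ATF4 likewise lost its call with the GC trend removed (-0.46, adjusted p = 0.118). The count of 10 was 1 without either PC9 shCTL library, either PC9 shLCN2_2 library or MDA231 shCTL replicate 2, and 3 without MDA231 shCTL replicate 1 or either MDA231 shLCN2_2 library. Of all genes called, 40.8% were more positive in PC9 with shLCN2_1 (58.6% with upper-quartile and 54.0% with TMM scaling), and 69.0% with shLCN2_2 (56.0% with the GC trend removed).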

How the data were processed

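Stranded polyA RNA libraries were sequenced from the 16 samples, per the labels' protocols. The deposited values are gene read counts from HTSeq 0.5.3 divided by a DESeq2 1.22.1 size factor for each library, on hg19, per the submitters' processing notes. The aligner, the annotation and the strand setting are not given in the sources used here. This normalized count signal, as deposited by the authors, gave whole reads for 100% of values (within 0.001 reads) after rescaling by the step of each library. Rows that name no gene were left out of library sizes and tests. They amounted to 24.4 to 36.5% of all reads counted, these rows included, in PC9 and 0% in MDA231. In PC9 parental replicate 2 the row for multiple alignments was 42.4% of gene reads, against 18.1 to 20.6% in the other libraries.

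Genes with a mean of at least 10 in a line were tested on log2(value + 1) with limma 3.58.1 (R 4.3.3), with all 4 groups of a line in one fit and, for differences between lines, all 8 groups in one fit, 2-sided, with Benjamini-Hochberg adjustment over all genes and a threshold of 0.05. Fold changes are on the log2(value + 1) scale. The limma fit of each line was tested on simulated counts with known changes in shCTL. The fit over both lines, the alternative fits and edgeR were not tested in that way. Gene reads per library bound the precision for low genes, and a count of 3 reads was taken as the floor. Alternatives were other scalings, pseudocounts and filters, reads thinned to equal depth, a replicate block, removal of a GC trend, leaving out each library and edgeR 4.0.16 on the recovered reads. No label ties the replicate numbers to a shared batch or day, and deviations of same-numbered libraries from their group means correlated at -0.02 to 0.08 in PC9. In MDA231 they correlated at 0.36 to 0.45 among parental, shCTL and shLCN2_2 cells and at -0.59 to -0.41 between these and shLCN2_1. The numbers were therefore not taken as pairs, and blocked and crossed fits were run as alternatives. All 39 genes could be named. Values per library are given for those called with an absolute log2 difference of at least 1, the 8 that differed most between lines, and ATF4, ASNS, DDIT3 and LCN2, with others as examples of their role. Up to 3 called genes of each other list could be named. The genes, the other pathway lists and the alternatives were chosen with earlier results of these data known. GC content and exon length came from GENCODE 29, which matched 98.5% of the PC9 genes and 98.7% of the MDA231 genes, and promoter sequences from RefSeq on GRCh38.p14.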

Additional observations from a re-analysis of the deposited data

Results flagged for a closer look

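These are the genes whose effect under the same contrast differed between PC9 and MDA231 by a test of the difference itself (limma, adjusted p under 0.05 over all 13392 genes). Values are log2 differences, PC9 minus MDA231. STC2 passed the minimum mean in MDA231 (mean 11.2) only through the libraries with hairpins against LCN2. Its values are therefore only described, although it counts among the genes called.

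For LeptoM shCTL minus parental cells, the factors gave ATF4 0.92, ATF3 3.28, DDIT3 0.96 and ATF5 -1.66. The stress outputs gave CHAC1 1.91 and STC2 -0.97. The enzymes gave ASNS 2.66, PSAT1 1.81, PSPH 0.57 and GPT2 -0.74. The transporters gave SLC3A2 0.67, SLC1A5 0.74, SLC38A2 -0.61 and SLC1A4 -2.69. The listed synthetases were all positive, with IARS at 1.41, EPRS at 1.23, CARS at 1.06, SARS at 0.89 and WARS at 0.81. GARS was at 0.59, AARS at 0.49, NARS at 0.39, YARS at 0.37 and MARS at 0.32. LARS, the remaining synthetase of the list, had 0.30 and was not called. The 12 other genes of the cytoplasmic synthetase group gave 3 more positive in PC9 and 4 more negative (median 0.03). Among the 4 were TARS (-0.92), VARS (-0.78) and KARS (-0.59).

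For shLCN2_1 minus shCTL, the factor ATF5 gave -0.56 and the stress outputs CHAC1 -1.92, SESN2 -0.94 and STC2 -1.49. The enzymes gave ASNS -0.48, PHGDH -0.99, SHMT2 -0.97, PYCR1 -1.85 and GPT2 -0.66. The transporters gave SLC7A5 -1.65, SLC3A2 -0.66, SLC1A5 -1.10 and SLC6A9 -1.88. The synthetases gave AARS -0.29, CARS -0.61, MARS -0.42, SARS -0.30, YARS -0.46 and NARS 0.36. PHGDH was called here although it was called in neither line alone. With the GC trend removed, 8 genes were more negative in PC9 in place of 18. ATF5 then turned to 0.48, SESN2 to 0.027, SLC3A2 to 0.0059, SLC1A5 to 0.13 and YARS to 0.0016, and CHAC1 (-0.48), PHGDH (-0.20), GPT2 (-0.23), SLC7A5 (-0.45), AARS (-0.055), MARS (-0.17), SARS (-0.24) and NARS (0.085) kept their sign without a call.

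For shLCN2_2 minus shCTL, the values were ATF4 -0.61, STC2 -1.44, ASNS -0.84, PSPH -0.37, SLC3A2 -0.85, SLC1A5 -1.07, AARS -0.40, GARS -0.48, MARS -0.36 and YARS -0.55. The difference was lost for ATF4, STC2, ASNS, PSPH, SLC3A2, SLC1A5, AARS, GARS and MARS when 1 of several libraries was left out (adjusted p up to 0.196 by limma). ATF4 (-0.46) and YARS (-0.41) were not called once the GC trend was removed.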

How the results depend on the processing

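With 2 libraries per group, the spread rests on few libraries, and in MDA231 the parental libraries hold fewer reads, which limits low genes such as ALDH1L2 and STC2 most. Of 3752 refits of 163 called effects, 3284 kept direction and call, 438 kept the direction and lost the call, and 30 turned direction. Of 741 refits of 33 counts, 560 stayed within 1.5 times.

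Direction turned in these cases, and the cause was not tested. With the hairpin groups in place of shCTL (chosen after seeing the data), PC9 minus parental gave PSAT1 -0.10, SLC1A5 -0.39, AARS -0.061, GARS -0.062, MARS -0.17 and YARS -0.23, and the difference between lines gave SLC3A2 -0.083, SLC1A5 -0.34, MARS -0.071 and YARS -0.14. With the GC trend removed, PC9 shLCN2_1 minus shCTL gave ATF5 0.26, SLC1A5 0.14 and SLC38A2 -0.059, shLCN2_1 minus shLCN2_2 gave ATF5 0.38 and SLC7A5 0.13, and the shLCN2_1 difference between lines gave ATF5 0.48, SESN2 0.027, SLC3A2 0.0059, SLC1A5 0.13 and YARS 0.0016.

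Counts that moved by over 1.5 times were as follows, as genes of the list higher and lower, then all genes called. For PC9 LeptoM shCTL minus parental, the hairpin groups in place of shCTL gave 13 higher and 14 lower. For PC9 shLCN2_1, upper-quartile scaling gave 8 higher, a fit of only the groups compared 0 higher, and removal of the GC trend 1 higher and 3730 in all (1 and 3431 with the block). For PC9 shLCN2_2, removal of the GC trend gave 1 higher (1 with the block), and only the groups compared gave 4 higher, 29 lower and 8045 in all. For PC9 shLCN2_1 minus shLCN2_2, removal of the GC trend gave 5 lower and 5233 in all (3 and 4955 with the block).

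For MDA231 LeptoM shCTL minus parental, removal of the GC trend gave 24 lower (23 with the block), only the groups compared 4 higher, 9 lower and 4382 in all, and the hairpin groups in place of shCTL 11 higher. For MDA231 shLCN2_1, removal of the GC trend gave 3 higher, 2 lower and 1457 in all (1, 2 and 1295 with the block), thinning 63 in all, only the groups compared 1 higher and 384 in all, and edgeR 297 in all. For MDA231 shLCN2_2, removal of the GC trend gave 2 higher, 2 lower and 1083 in all (2, 2 and 957 with the block), only the groups compared 204 in all, and edgeR 188 in all. Of all genes called with MDA231 shLCN2_2, 26.7% were higher, and 39.2% with the GC trend removed. For MDA231 shLCN2_1 minus shLCN2_2, removal of the GC trend gave 4 higher, 3 lower and 2764 in all (2, 2 and 2589 with the block), thinning 209 in all, only the groups compared 1 higher, and edgeR 1 higher and 687 in all.

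For the difference between lines, in the LeptoM effect the hairpin groups in place of shCTL gave 11 lower. In the shLCN2_1 effect, upper-quartile scaling gave 5 higher, TMM 3 higher, and removal of the GC trend 0 higher, 8 lower and 2032 in all (0, 8 and 1902 with the block). In the shLCN2_2 effect, removal of the GC trend gave 1 higher, 16 lower and 2138 in all (1 higher and 1995 in all with the block), thinning 6 lower, and only the groups compared 20 lower and 2515 in all.

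The replicate block alone moved 3 counts of all genes by over 1.5 times, all in MDA231, to 47 (shLCN2_1), 1 (shLCN2_2) and 178 (shLCN2_1 minus shLCN2_2). A crossed pairing, added after seeing the data because some same-numbered libraries deviated in opposite directions, gave for MDA231 11 higher in LeptoM shCTL minus parental, 8 higher, 2 lower and 1892 in all with shLCN2_1, 5, 2 and 2545 with shLCN2_2, and 2, 1 and 1963 between hairpins, and for the differences between lines 8 lower in the LeptoM effect, 4 higher in the shLCN2_1 effect, and 18 lower and 1668 in all in the shLCN2_2 effect.

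Leaving out 1 library at a time gave these ranges of genes higher, lower and called in all. PC9 LeptoM shCTL minus parental ranged over 14 to 25, 3 to 6 and 4161 to 8889. PC9 shLCN2_1 ranged over 0 to 8, 13 to 21 and 3866 to 8173, and PC9 shLCN2_2 over 0 to 3, 7 to 24 and 361 to 5469. PC9 shLCN2_1 minus shLCN2_2 ranged over 12 to 16, 4 to 12 and 5817 to 9453. MDA231 LeptoM shCTL minus parental ranged over 4 to 11, 8 to 15 and 3486 to 9081. MDA231 shLCN2_1 ranged over 0 to 1, 0 to 0 and 0 to 674, MDA231 shLCN2_2 over 0 to 1, 0 to 0 and 0 to 366, and MDA231 shLCN2_1 minus shLCN2_2 over 0 to 1, 0 to 0 and 8 to 1225. The differences between lines ranged over 15 to 20, 3 to 8 and 4751 to 7435 for LeptoM, 0 to 4, 5 to 20 and 753 to 6542 for shLCN2_1, and 0 to 0, 1 to 13 and 186 to 1406 for shLCN2_2.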
